A study of Homo sapiens with 12 samples.

Results

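The response of A375 cells to 72 h of MAPK inhibition was described by setting 3 libraries of treated cells against 3 libraries of solvent controls, 6 of the 12 RNA sequencing libraries of the series. A375 is an established human melanoma line with a mutant BRAF, obtained from ATCC and grown in DMEM with serum and glutamine. The controls (CC) were kept in DMSO, the solvent, over 72 h. The treated cultures (TC) were exposed over the same 72 h to the inhibitor of mutant BRAF vemurafenib and to the MEK inhibitor cobimetinib, each at 500 nM, and were harvested when the exposure ended. The other libraries, which share the estimate of the spread, come from cells that received the same treatment and then grew for 2 days (PC) or 9 days (RC) without drug. The paper describes RNA extraction from centrifuged detergent lysates of cells and names total RNA as the input of the libraries. Whether nuclear RNA was left out is not certain. Ribosomal RNA was depleted, and paired reads were sequenced on a NovaSeq instrument. All groups are 1 cell line, a single drug pair and a single dose. The labels do not say that the replicates are separate cultures, so p-values measure only the spread between these libraries, which may be technical.

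Mutant BRAF keeps the kinases MEK and ERK active without a growth factor. ERK phosphorylates transcription factors and kinases that drive the cell cycle, MYC, translation and lipid synthesis, and its own transcriptional output includes the phosphatases and Sprouty proteins that restrain it. In melanocytes the pathway also acts on MITF, the factor that controls pigment genes, and on SOX10, which specifies the lineage from the neural crest. The comparison asks which other programmes of the cell differed once the pathway had been blocked for 72 h.

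Total counts of the TC and CC libraries were between 38320786 and 55567097, and their TMM factors lay between 0.965 and 1.007. Of 44659 listed genes, 15916 had a mean scaled count of at least 10 and were tested. Mitochondrial rRNA and tRNA took 1.57% to 2.42% of the counts in CC and 3.11% to 3.73% in TC, and the part of this difference in the results was not tested. Melanoma markers were present in all 6 libraries, with a summed level of 1846 to 2025 CPM (a gene's share of the TMM-scaled library total, in parts per 1000000) in CC and 7246 to 10452 CPM in TC over 9 markers. Most of this difference came from DCT, and the means of MITF and S100B were lower in TC. The 5 blood cell markers summed to 1.12 to 1.90 CPM in CC and 0.767 to 0.959 CPM in TC, mostly from LYZ, with HBB at 0. The 3 endothelial markers summed to 3.36 to 5.23 CPM in CC and 1.73 to 2.33 CPM in TC, nearly all from VWF, with CDH5 at 0. The 6 epithelial markers summed to 84.6 to 108 CPM in CC and 19.0 to 19.9 CPM in TC, mostly from the keratin gene KRT18, with KRT5 at 0. Fibroblast markers summed to 43.0 to 57.6 CPM in CC and 67.5 to 87.7 CPM in TC over 6 genes, with DCN and COL1A2 at or near 0. The members went both ways between CC and TC means, with FAP at 16.0 and 68.4 CPM, LUM at 27.8 and 6.75 CPM and PDGFRA at 3.79 and 1.25 CPM. Since RNA was measured over all cells together, fewer cells of a type and less RNA per cell cannot be told apart.

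A gene was called at an adjusted p under 0.05 (edgeR quasi-likelihood test, two-sided, Benjamini-Hochberg adjustment over all 15916 genes). By this rule 5285 genes were higher in TC (33.2% of those tested) and 5522 were lower (34.7%). Beyond a 1.5-fold change (glmTreat), 2564 genes were higher (16.1%) and 3068 lower (19.3%). The median log2 fold change of all tested genes was -0.02. Genes were grouped into 48 lists holding 1693 genes, of which 1466 were tested. Each list is given below by the number of its tested members called in each direction and by the median of their log2 fold changes, to be read beside 33.2%, 34.7% and -0.02 for all genes.

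Pigment cell genes were mostly higher in TC. Of 18 tested melanocyte genes, 13 were higher and 3 lower, with a median log2 fold change of 1.01. The gene of dopachrome tautomerase, DCT (chromosome 13, 94436811 to 94479682, minus strand, GRCh38), an enzyme of eumelanin synthesis, had 444, 337 and 440.5 CPM in the CC libraries and 7866, 6230.5 and 5261 CPM in the TC libraries. All TC libraries were far above all CC libraries, a 15.8-fold difference (log2 3.99 ± 0.20 SE, adjusted p = 5.55e-09). PMEL, which forms the fibrils of the melanosome, had 75.3, 63.3 and 71.6 CPM in CC and 817, 609.9 and 419.6 CPM in TC. It also stood apart between the groups, at a log2 fold change of 3.13 ± 0.26 (adjusted p = 4.26e-07).

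The genes above them in this network moved less. MITF, the master factor of pigment genes, had 306, 303 and 476 CPM in CC and 407, 321 and 236 CPM in TC. The groups overlapped and MITF was not called (log2 -0.17 ± 0.25, adjusted p = 0.558). SOX10, which specifies the melanocyte lineage, went from 659 ± 7.51 to 1046 ± 20.4 CPM (mean ± SD, n = 3), a 1.59-fold rise that was called (adjusted p = 2.55e-07) but did not pass the test against 1.5-fold. The melanosomal enzyme TYRP1 rose from 3.64 ± 0.696 to 20.3 ± 3.19 CPM and the melanocortin receptor MC1R from 15.9 ± 3.75 to 62.1 ± 6.70 CPM. TRPM1, a channel gene that is a known target of MITF, had no count in any CC library and 5.03, 3.65 and 2.41 CPM in TC, at least 54.0-fold higher against a floor of 3 counts per CC library. The melanosome exchanger SLC24A5 went the other way (40.0 ± 7.77 to 14.8 ± 2.68 CPM), and of the melanosome transport genes RAB27A fell and MLPH rose.

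The M-box, TCATGTG, is the sequence that MITF binds at pigment genes. It was searched on both strands in the RefSeq promoter windows (250 bases before to 50 after each start, GRCh38.p14), where 2.92% of 35116 windows held it. Of 22 melanocyte genes 18 had a window, and 6 of the 18 held an M-box, among them DCT, TYRP1 and TYR. Since a gene can have several windows, the matching share of genes is 3.59% of 27305. Of the 6 list members with an M-box 5 were tested, and 4 of them were higher and 1 lower. Among 10 tested members with a window without it 7 were higher and 1 lower. The 250 bases before the start of the DCT and TYRP1 genes are shown because both rose, with the M-box or its reverse complement in capitals. They lie at chr13:94479683-94479932 on the minus strand and chr9:12693135-12693384 on the plus strand.
DCT: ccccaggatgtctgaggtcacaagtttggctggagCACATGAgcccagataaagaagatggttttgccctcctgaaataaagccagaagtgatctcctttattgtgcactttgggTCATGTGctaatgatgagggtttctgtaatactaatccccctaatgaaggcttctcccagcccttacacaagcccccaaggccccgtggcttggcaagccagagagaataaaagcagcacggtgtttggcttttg
TYRP1: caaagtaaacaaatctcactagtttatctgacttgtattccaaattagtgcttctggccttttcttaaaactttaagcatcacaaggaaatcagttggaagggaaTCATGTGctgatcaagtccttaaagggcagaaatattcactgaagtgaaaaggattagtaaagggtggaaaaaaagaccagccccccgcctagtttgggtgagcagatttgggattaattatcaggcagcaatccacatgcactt
A match describes the letters of the window, not binding.

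Neural crest genes moved in both directions and by large amounts: of 31 tested, 19 were higher and 9 lower (median 0.91). NGFR (chromosome 17, 49495293 to 49515008, plus strand, GRCh38), the low-affinity neurotrophin receptor that marks neural crest stem cells, had 5.68, 4.52 and 3.41 CPM in CC and 3572, 4619 and 5205 CPM in TC. Every TC library lay far above every CC library (log2 9.95 ± 0.24, adjusted p = 3.40e-11). Its level was 6310.4 ± 339 CPM in PC and 18.7 ± 3.31 CPM in RC. Among the transcription factors, TFAP2A (26.1 ± 0.588 to 193 ± 34.3 CPM) and FOXD3 (24.5 ± 1.68 to 119.5 ± 12.5 CPM) rose, as did the repressors ZEB2 (log2 1.96) and SNAI2 (1.26). Their relatives ZEB1 (-1.66) and TWIST1 (-1.66) fell. TFAP2B, the paralog of TFAP2A, fell from 79.2 ± 8.49 to 2.89 ± 0.783 CPM, and the retinoid receptor gene RXRG from 203 ± 4.96 to 8.52 ± 1.85 CPM. CSPG4, a surface proteoglycan of melanoma cells, had 1894, 1242 and 1950.2 CPM in CC and 87.6, 114 and 141 CPM in TC. Its groups did not overlap (log2 -3.89 ± 0.19, adjusted p = 5.09e-09). The cadherin gene CDH19 of the Schwann cell lineage rose (log2 1.95), whereas the calcium-binding S100B fell (264 ± 36.6 to 140.4 ± 11.0 CPM).

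Receptor tyrosine kinases divided almost evenly, with 12 higher and 11 lower of 28 tested (median 0.09). AXL, a receptor for the ligand GAS6, had 7.25, 6.28 and 7.34 CPM in CC and 29.1, 35.3 and 49.3 CPM in TC. All TC libraries lay above CC (log2 2.45 ± 0.20, adjusted p = 4.26e-07). GAS6 itself rose from 1.78 ± 0.411 to 11.5 ± 2.44 CPM. FLT1, a receptor for VEGFA, rose from 3.90 ± 0.566 to 51.9 ± 1.72 CPM, and VEGFA rose from 88.3 ± 41.2 to 218 ± 45.8 CPM, while the other VEGFA receptor, KDR, fell from 6.42 ± 0.402 CPM to 4 counts in the 3 TC libraries together (ratio of CC over TC 210.4, 95% counting interval 81.9 to 774). EGFR fell (5.58 ± 0.438 to 1.59 ± 0.182 CPM), the collagen receptor DDR2 fell (289 ± 53.6 to 58.9 ± 2.47 CPM), and IGF1R fell less (212 ± 24.8 to 136 ± 12.4 CPM). ERBB3, the neuregulin receptor, was not called: it had 548, 346 and 515 CPM in CC and 493, 532 and 577 CPM in TC (log2 0.18 ± 0.13, adjusted p = 0.237). Of 4 tested FGF receptors 3 were higher and 1 lower (median 2.63). FGFR1 fell (log2 -1.02) and FGFR3 rose, although with a wide spread in TC (5.47, 18.7 and 50.9 CPM against 2.196, 1.72 and 2.56 in CC).

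Growth factor ligands were called higher in 14 and lower in 9 of 30 tested genes (median 0.41). Within the fibroblast growth factors, FGF5 had 1.58, 1.45 and 1.08 CPM in CC and 43.4, 46.8 and 54.8 CPM in TC, a 35.4-fold rise (adjusted p = 1.31e-10). FGF1 also rose (3.90 ± 0.598 to 27.0 ± 5.63 CPM). FGF2 fell (20.5 ± 2.51 to 2.55 ± 0.550 CPM), and so did HGF, the ligand of MET (15.0 ± 1.68 to 0.141 ± 0.0960 CPM). IGFBP5, which binds insulin-like growth factors, rose from 2.79 ± 0.626 to 79.4 ± 5.31 CPM, while IGFBP2 fell (log2 -0.84). The ERBB ligands moved apart: TGFA (-1.35) and AREG (-1.99) fell and HBEGF (1.84) and BTC (2.72) rose.

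**Figure D1:**
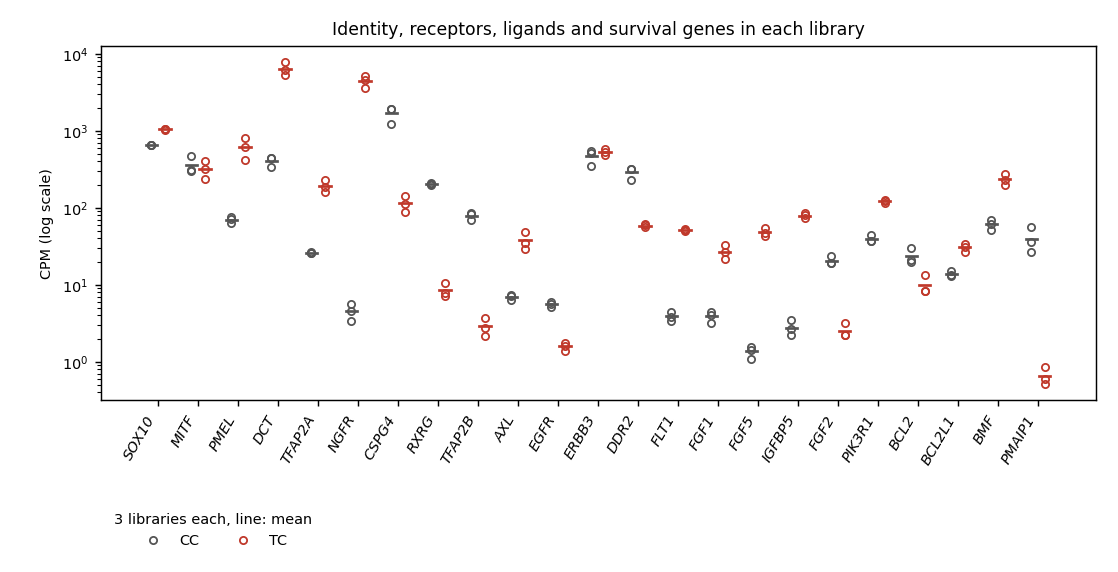
Level in CPM on a log scale of identity, receptor, ligand and survival genes in each of the 3 CC (grey) and 3 TC (red) libraries, with the mean as a line. NGFR and FGF5 show the widest upward gaps drawn, RXRG, TFAP2B and PMAIP1 the widest downward gaps, and MITF and ERBB3 overlap between groups.

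Among 29 tested genes of the insulin and PI3K pathway, which passes growth factor signals to AKT, and of the FOXO factors that AKT restrains, 15 were higher and 9 lower (median 0.19). The adaptor IRS1 rose (20.5 ± 4.38 to 73.4 ± 4.85 CPM), whereas IRS2 was not called (391 ± 37.8 to 386 ± 68.4 CPM). The regulatory subunits PIK3R1 (37.4, 36.9 and 45.0 CPM in CC, 117, 124 and 125 CPM in TC) and PIK3R3 (log2 2.35) and the inhibitor PIK3IP1 (3.00 ± 0.978 to 10.39 ± 0.698 CPM) rose without overlap between groups. Of the FOXO targets, SESN3 (83.8 ± 14.9 to 320.2 ± 13.5 CPM) and TXNIP (570.3 ± 168 to 1575 ± 202 CPM) rose, and CDKN1B was not called (44.7 ± 4.47 to 44.6 ± 2.44 CPM). PDK4, also a FOXO target and a kinase that inhibits pyruvate dehydrogenase, fell from 241 ± 35.9 to 6.73 ± 1.85 CPM.

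The BCL2 family sets the threshold for apoptosis, with survival members that hold back BAX and BAK and BH3-only members that oppose them. Of 17 tested members 8 were higher and 4 lower (median 0.29). BMF, a BH3-only gene, had 69.1, 62.1 and 52.1 CPM in CC and 199, 230.5 and 277 CPM in TC. BCL2L11, which encodes BIM, had 20.1, 19.4 and 18.0 CPM in CC and 39.5, 40.9 and 36.9 CPM in TC. Neither gene overlapped between groups (log2 1.95 ± 0.14, adjusted p = 1.30e-07, and 1.03 ± 0.07, adjusted p = 5.24e-08). The BH3-only genes PMAIP1 (NOXA, 39.4 ± 14.9 to 0.654 ± 0.179 CPM), HRK (log2 -1.82) and BBC3 (-0.48) fell. Among survival members BCL2L1 rose (13.8 ± 1.05 to 30.6 ± 3.68 CPM), BCL2A1 rose (log2 1.04), BCL2 fell (23.7 ± 5.72 to 9.98 ± 2.98 CPM) and MCL1 was not called (215, 191 and 391 CPM in CC, 271, 281 and 283 CPM in TC), though it was called higher without CC replicate 3 (log2 0.46). Of the effectors, BAK1 was not called, and BAX was called only without CC replicate 2 (log2 0.28) among the alternatives run. BOK (log2 0.31, adjusted p = 0.052) lay near the threshold: it was called higher with relative log expression factors, with DESeq2, and with numbered copies or mitochondrial genes removed (0.32 to 0.33), and also without TC replicate 2 (0.40).

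Genes of ribosome production, translation and splicing were mostly lower in TC. MYC, which drives ribosome production, had 55.7, 51.6 and 70.0 CPM in CC and 4.33, 3.68 and 5.43 CPM in TC (log2 -3.71 ± 0.15, adjusted p = 8.81e-10). The groups were far apart, and MXD4, a repressor that competes with MYC for MAX, moved the other way (21.5 ± 1.56 to 91.0 ± 1.07 CPM). Of 63 tested ribosome biogenesis genes 55 were lower and 2 higher (median -0.79), and of 77 cytosolic ribosomal protein genes 74 were lower and 1, RPS26, was higher (median -0.86). POLR1B, a core subunit of RNA polymerase I, had 187, 149 and 245 CPM in CC and 68.1, 68.2 and 66.2 CPM in TC. The nucleolar proteins NPM1 (1772 ± 128 to 678 ± 29.4 CPM) and NCL (1259.7 ± 116 to 595 ± 6.48 CPM) and the pseudouridine synthase DKC1 (184 ± 31.4 to 75.0 ± 4.11 CPM) fell. UBTF, an activator of rRNA genes, was the exception that rose among the polymerase I factors (log2 0.55). RPL3 had 2609.6, 2614 and 2382 CPM in CC and 1237, 1248 and 1209.6 CPM in TC, and RPS6 1176, 1201 and 1144 CPM and 591, 596 and 602 CPM. In both genes the 3 TC libraries lay close together and below every CC library (log2 -1.04 ± 0.05 and -0.98 ± 0.06). RPS4X was not called (1553 ± 114 to 1615 ± 18.3 CPM), and the call of RPS26 (log2 0.27) was lost without CC replicate 1 (0.22) or 3 (0.21) and without TC replicate 2 (0.25) or 3 (0.24), and also in a fit of the 6 libraries of TC and CC alone (0.28, adjusted p = 0.0527, edgeR quasi-likelihood test).

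Translation factors were lower in 32 and higher in 5 of 45 tested genes (median -0.62). Of 35 initiation factors 25 were lower, for example EIF3E (log2 -1.03) and EIF2S2 (-1.25), and 4 were higher, among them EIF3I (0.50). Genes of the eIF4E-binding repressors moved apart, with EIF4EBP1 at 267, 239 and 268 CPM in CC and 75.3, 77.6 and 80.6 CPM in TC, and EIF4EBP2 at 58.3, 52.7 and 61.3 CPM and 142, 139 and 129.8 CPM. EIF4EBP1 fell 3.31-fold and EIF4EBP2 rose 2.38-fold. Spliceosome genes were lower in 31 and higher in 5 of 46 (median -0.69), among them the U1 protein SNRPA (113 ± 21.7 to 22.9 ± 2.82 CPM) and HNRNPA1 (1905 ± 188 to 520.1 ± 48.6 CPM). Proteasome genes did not follow: 3 of 30 were higher and 6 lower (median -0.01), both shares below those of all genes. In the chaperones, all 7 tested subunits of the chaperonin TRiC fell (median -0.51), and so did the mitochondrial chaperones HSPD1 (855 ± 68.2 to 278 ± 20.2 CPM) and TRAP1 (179 ± 2.89 to 48.6 ± 3.83 CPM). The small heat shock genes HSPB1 (log2 1.20) and CRYAB (5.69 ± 1.10 to 129 ± 36.8 CPM) rose, as did HSPA8 (0.87).

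The mitochondrial ribosome and its regulators were lower, the respiratory chain less so. Of 73 mitochondrial ribosomal protein genes 45 were lower and 14 higher (median -0.28). Of 11 genes that copy and transcribe mitochondrial DNA or control its proteins 8 were lower and 0 higher (median -0.76), with the RNA polymerase POLRMT at 88.7 ± 5.57 to 33.3 ± 2.82 CPM, TFB1M, which methylates mitochondrial rRNA, at 24.6 ± 2.98 to 4.30 ± 0.845 CPM, and TFAM at 88.7 ± 17.5 to 51.7 ± 3.48 CPM. The coactivator gene PPARGC1A had 78.0, 88.2 and 91.4 CPM in CC and 82.03, 60.6 and 45.1 CPM in TC and was not called (adjusted p = 0.0842), though it was called lower without TC replicate 1 (log2 -0.69). Nuclear genes of the respiratory chain were lower in 27 and higher in 7 of 71 (median -0.11), and 9 of the lower ones were among 15 genes of ATP synthase. The 13 protein genes of mitochondrial DNA were not analysed here. TCA cycle enzymes and their feeders were lower in 18 and higher in 2 of 26 (median -0.37), with falls in IDH1 (208 ± 38.4 to 63.5 ± 2.41 CPM) and IDH2 (log2 -1.44), while the citrate synthase gene CS was not called (338 ± 20.8 to 338 ± 33.7 CPM). Glycolysis and the pentose phosphate pathway were mixed, 11 higher and 14 lower of 34: HK2 (-0.81), PFKP (-1.04) and the transketolase TKT (-1.62) fell, and PGAM1 (0.81) and TPI1 (0.54) rose. LDHA and ALDOA, which every cell uses, were listed at 0.390 ± 0.135 and 1.11 ± 0.423 CPM in CC and are not read as levels.

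Genes of nucleotide and serine synthesis were lower by large amounts. In the purine pathway 10 of 13 genes were lower and 2, ADSS1 and PRPS1, were higher, and in the pyrimidine pathway 6 of 7 were lower (median over both pathways -1.11). PPAT, the first committed enzyme of purine synthesis, had 76.3, 75.0 and 81.9 CPM in CC and 22.7, 22.6 and 23.8 CPM in TC, and CAD, which starts pyrimidine synthesis, 152, 126 and 157 CPM and 61.9, 57.2 and 58.0 CPM. Neither overlapped (log2 -1.75 ± 0.06 and -1.29 ± 0.08). Serine synthesis and folate genes had the lowest median of all lists, -2.17, with 12 of 15 lower and 1 higher. PHGDH (chromosome 1, 119648411 to 119744218, plus strand, GRCh38), the enzyme that opens serine synthesis, had 322, 239 and 316 CPM in CC and 19.5, 18.3 and 15.9 CPM in TC. Its groups were an order of magnitude apart (16.4-fold lower, adjusted p = 5.51e-10). The next enzymes of the path, PSAT1 (327 ± 93.1 to 42.6 ± 13.1 CPM) and PSPH (log2 -2.21), and the mitochondrial folate enzymes SHMT2 (337 ± 36.0 to 86.0 ± 5.48 CPM) and MTHFD2 (532 ± 95.6 to 43.6 ± 7.21 CPM) fell as well.

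Amino acid transporters were lower in 11 and higher in 5 of 19 tested genes (median -0.95). The glutamine carriers SLC1A5 (526, 347 and 556 CPM in CC, 64.7, 76.5 and 93.3 CPM in TC) and SLC38A1 (409, 271 and 533 CPM and 18.4, 16.8 and 16.2 CPM) and the arginine carrier SLC7A1 (269 ± 88.1 to 35.0 ± 5.13 CPM) fell. In each of them the TC libraries lay below all CC libraries, and CC replicate 2 was the lowest of the controls. The cystine carrier SLC7A11 fell from 247 ± 89.5 to 53.6 ± 31.1 CPM. SLC7A5, which carries leucine and other large neutral amino acids, was not called (889.9, 555 and 1028 CPM in CC, 825, 857 and 982 CPM in TC), and its relative SLC7A8 rose (23.6 ± 2.46 to 65.9 ± 8.81 CPM).

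Genes of lipid synthesis were mostly lower. Of 16 tested genes of fatty acid synthesis 11 were lower and 2 higher (median -1.10), and of 26 genes of cholesterol synthesis and uptake 19 were lower and 2 higher (median -0.93). FASN, the fatty acid synthase, had 1724, 1479 and 1964 CPM in CC and 301, 293 and 315 CPM in TC (log2 -2.51 ± 0.10, adjusted p = 6.99e-10). SCD, the desaturase, had 879, 827 and 898 CPM in CC and 283, 303 and 353 CPM in TC. Both stood clear between groups, as did the squalene epoxidase gene SQLE (99.7 ± 15.8 to 28.9 ± 5.86 CPM). Of the sterol regulators, SREBF2 fell (log2 -1.02) and SREBF1 rose (0.34), and INSIG1 fell (-1.22) while INSIG2 rose (1.06). Fatty acid uptake and oxidation were mixed, with 9 higher and 7 lower of 23: the fatty acid carrier CD36 (0.400 ± 0.0666 to 7.58 ± 0.740 CPM) and the mitochondrial entry enzyme CPT1A (37.8 ± 1.88 to 72.0 ± 3.72 CPM) rose, and the lipoprotein lipase LPL fell (8.42 ± 1.45 to 0.1001 ± 0.0781 CPM). Of the cholesterol export genes APOC1 fell (268 ± 9.67 to 13.1 ± 1.29 CPM) and its neighbour APOE was not called (743 ± 64.2 to 653 ± 149.6 CPM).

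**Figure D2:**
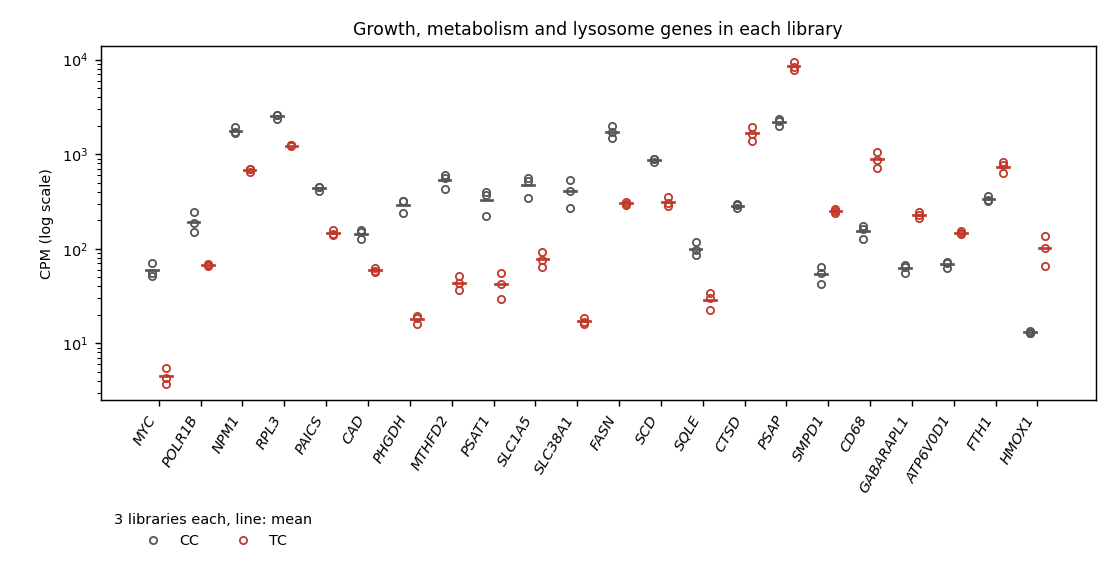
Level in CPM on a log scale of growth, metabolism and lysosome genes in each of the 3 CC (grey) and 3 TC (red) libraries, with the mean as a line. From MYC to SQLE all TC points lie below the CC points, and from CTSD to HMOX1 all lie above.

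Lysosomal genes were more often higher than lower. Of 82 tested, 46 were higher and 17 lower (median 0.32). This held for the proton pump that acidifies the lumen (12 of 17 higher, median 0.54) and for the hydrolases (23 of 42, median 0.53). The gene of cathepsin D, CTSD, had 300.2, 288 and 268 CPM in CC and 1394, 1642 and 1940.0 CPM in TC, and PSAP, the precursor of the saposins, 2351, 2218 and 2003 CPM and 7704, 8265 and 9477 CPM. Both groups of libraries were well apart (log2 2.54 ± 0.11 and 1.95 ± 0.08). The acid sphingomyelinase SMPD1 (53.6 ± 11.0 to 251.3 ± 14.1 CPM), the hyaluronidase HYAL2 (23.8 ± 2.34 to 167 ± 20.4 CPM) and the membrane glycoprotein CD68 (154 ± 24.0 to 881 ± 174 CPM) rose too. Members that fell included the protease gene LGMN (log2 -1.47), the cathepsin gene CTSV (-1.29) and the sterol exporter NPC1 (-1.13). TFEB, which switches on lysosomal genes, had 6.69, 7.50 and 6.86 CPM in CC and 10.39, 10.0 and 9.12 CPM in TC, a 1.40-fold rise that was called (adjusted p = 0.00158) but not beyond 1.5-fold.

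The E-box CACGTG is the core of the site bound by TFEB and MITF. On both strands it was in 7.26% of all 35116 RefSeq promoter windows and in those of 8.77% of 27305 genes. Of 88 lysosome genes 63 had a window, and 18 of the 63 held the E-box. Among the 16 of these that were tested 11 were higher and 2 lower, and among 43 tested genes with a window without it 23 were higher and 12 lower. The 250 bases before the start of CTSD and of CTSF, the gene of cathepsin F (105 ± 12.9 to 330.1 ± 20.3 CPM), are shown because both rose, with the E-box in capitals. They lie at chr11:1763928-1764177 and chr11:66568607-66568856, both on the minus strand of GRCh38.p14.
CTSD: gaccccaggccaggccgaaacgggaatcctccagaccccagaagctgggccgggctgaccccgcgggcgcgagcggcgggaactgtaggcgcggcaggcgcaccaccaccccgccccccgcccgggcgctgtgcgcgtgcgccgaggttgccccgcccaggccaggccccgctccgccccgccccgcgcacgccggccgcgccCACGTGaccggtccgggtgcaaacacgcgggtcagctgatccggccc
CTSF: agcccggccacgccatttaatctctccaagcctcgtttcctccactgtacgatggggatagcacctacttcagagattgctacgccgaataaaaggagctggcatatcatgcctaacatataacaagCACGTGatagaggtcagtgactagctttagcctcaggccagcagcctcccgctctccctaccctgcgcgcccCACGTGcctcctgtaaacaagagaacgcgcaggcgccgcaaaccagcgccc
For CTSD the match begins 47 bases before the start, and for CTSF there are 2 matches.

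**Figure D3:**
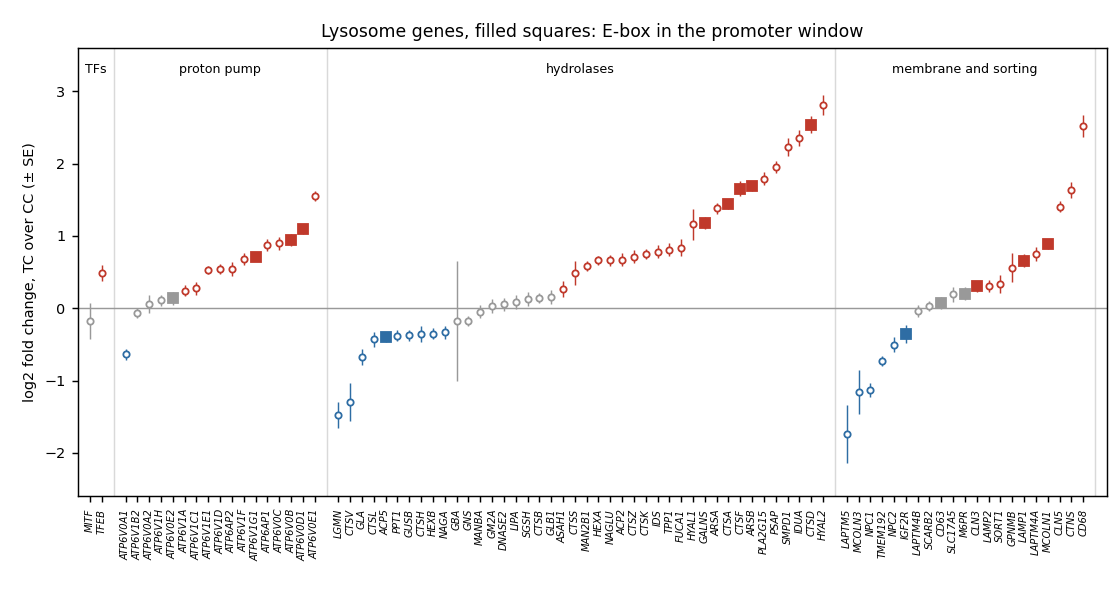
Log2 fold change (TC over CC, ± SE) of each tested lysosome gene by role, coloured red where called higher, blue where called lower and grey where not called. Filled squares are genes whose RefSeq promoter window holds the E-box, and these lie in the upper as well as the lower range.

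Autophagy genes rose in 12 and fell in 7 of 33 (median 0.13), among them GABARAPL1, a protein of the autophagosome membrane (64.2, 66.6 and 55.9 CPM in CC, 213, 227 and 247 CPM in TC) and the initiating kinase ULK1 (32.2 ± 2.27 to 82.6 ± 4.72 CPM), which both rose. The 7 that fell include SQSTM1, for which 1 CC library held most of the counts (8.14, 128 and 14.3 CPM in CC), and which was not lower without that library (log2 0.12). Endoplasmic reticulum chaperones and quality control genes rose in 10 and fell in 5 of 24 (median 0.25): CALR (log2 1.00), HSPA5 (0.66) and CRELD2 (1.35) rose, while the stress sensor ERN1 (-1.40) and its target XBP1 (-1.15) fell. Oxidative stress and iron genes rose in 13 and fell in 6 of 26 (median 0.32). Heme oxygenase, HMOX1, had 13.3, 12.9 and 12.8 CPM in CC and 137, 103 and 64.9 CPM in TC, above CC in all 3 libraries but with a wide spread. In the class of ferroptosis defence and iron genes 5 of 11 were higher and 4 lower. The ferritin genes FTH1 and FTL and the gene NCOA4 rose, with FTH1 at 337 ± 22.4 to 738 ± 98.03 CPM, FTL at 1498 ± 259 to 2897 ± 108 CPM and NCOA4, which carries ferritin to the lysosome, at 165 ± 2.54 to 536 ± 57.8 CPM. The extracellular superoxide dismutase SOD3 fell from 547, 509 and 539 CPM to 20.5, 20.2 and 22.5 CPM (log2 -4.66 ± 0.10, adjusted p = 2.23e-11).

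Interferon genes showed no common direction, with 17 higher and 16 lower of 45 (median 0.08). ISG15 (13.1 ± 4.54 to 29.1 ± 2.96 CPM) and SAMD9 (13.5 ± 0.617 to 32.2 ± 1.06 CPM) rose, and MX1 (7.97 ± 1.85 to 3.74 ± 0.356 CPM) and OAS1 (log2 -1.14) fell. Antigen presentation genes rose in 8 and fell in 0 of 12 tested (median 0.92), but 15 of the 27 listed genes, most of them HLA genes, were not tested. CD74, the invariant chain of class II molecules, had 1025, 813 and 767 CPM in CC and 3173, 3116 and 3452 CPM in TC. Its activator CIITA had 70.1, 52.1 and 40.0 CPM and 145, 146 and 149 CPM. Both rose without overlap (log2 1.90 ± 0.11 and 1.44 ± 0.16), and B2M, the light chain of class I, rose from 82.4 ± 11.3 to 159 ± 6.07 CPM.

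Cytokine and chemokine genes were mostly lower: of 34 listed, 16 were tested, and of these 11 fell and 4 rose (median -1.16). The chemokines rose in 2 and fell in 4 of 7 (median -1.36), and the highest log2 fold change of the list was in this class. GDF15, a stress-induced member of the TGF-beta family, had 1049.6, 786 and 1584 CPM in CC and 25.5, 17.1 and 19.2 CPM in TC, and the cytokine IL24 582, 517 and 399 CPM and 16.2, 10.2 and 12.5 CPM. The groups of both were more than an order of magnitude apart (log2 -5.79 ± 0.33 and -5.27 ± 0.21). LIF fell as well (65.7 ± 40.8 to 6.72 ± 0.604 CPM). IL11 went from 0.197, 0.158 and 0.466 CPM to 13.9, 25.2 and 43.0 CPM, a rise with a wide spread between TC libraries. In the complement and coagulation list 6 of 21 rose and 8 fell: the protease inhibitors SERPINA3 (6099 ± 800.3 to 313 ± 114 CPM) and SERPINE2 (log2 -2.13) fell, and of the membrane proteins that protect cells from complement, CD55 fell (189.9 ± 18.1 to 33.5 ± 1.48 CPM), CD59 rose (903 ± 169.5 to 3288 ± 411 CPM) and CD46 was not called (log2 -0.03).

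RNA of matrix genes moved in both directions. Of 31 tested collagens 13 rose and 12 fell (median 0.18), and their classes went apart. Basement membrane collagens fell in 6 and rose in 1 of 8 (median -1.78), and fibrillar collagens rose in 5 and fell in 2 of 9 (median 1.69). As the median log2 difference from the CC mean, fibrillar collagens stood at 0.65, 1.70 and 1.52 in TC replicates 1, 2 and 3. COL4A1 (chromosome 13, 110148963 to 110307157, minus strand, GRCh38), a chain of basement membrane collagen, had 342, 332 and 312 CPM in CC and 37.2, 40.9 and 37.8 CPM in TC. Its partner COL4A2, transcribed from the same locus in the other direction, had 819, 720.0 and 762 CPM and 97.1, 100.5 and 102 CPM. In both the replicates lay close together and the groups far apart (log2 -3.09 ± 0.07 and -2.94 ± 0.07). The fibrillar COL5A2 rose (81.5 ± 6.48 to 630.5 ± 176 CPM) and so did COL8A1 (6.70 ± 1.13 to 116 ± 9.59 CPM), whereas COL1A1 was low and not called. Laminin chains LAMA1 (232 ± 44.05 to 12.7 ± 0.570 CPM) and LAMB1 (998 ± 101.4 to 273 ± 26.2 CPM) fell. Among other matrix genes 15 of 42 rose and 15 fell: THBS1 (161 ± 8.80 to 1116 ± 175 CPM), MGP, an inhibitor of calcification (183 ± 44.1 to 2449 ± 989 CPM), and MATN2 (2.34 ± 0.485 to 128 ± 28.2 CPM) rose and tenascin TNC fell (1697 ± 159 to 810.2 ± 271 CPM).

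Enzymes that remodel the matrix rose in 13 and fell in 8 of 28 (median 0.11). MMP2, a gelatinase, had 121, 93.6 and 94.4 CPM in CC and 1149.5, 1260.3 and 1519.6 CPM in TC, and the membrane-bound proteases MMP15 (127 ± 13.9 to 1686 ± 492 CPM) and MMP14 (187 ± 5.96 to 658 ± 125 CPM) and the inhibitor TIMP2 (836 ± 13.2 to 2308 ± 176 CPM) rose alongside it. LOXL4, which cross-links collagen, went the other way, from 2069.8, 1579.6 and 1835 CPM to 57.5, 60.8 and 78.8 CPM (log2 -4.80 ± 0.15, adjusted p = 1.75e-10). Integrins rose in 9 and fell in 7 of 17 (median 0.49). The laminin-binding ITGA6 (412 ± 30.0 to 1844 ± 250.04 CPM) and collagen-binding ITGA2 (34.6 ± 8.06 to 218 ± 41.6 CPM) rose, and ITGA10 fell (45.2 ± 9.04 to 0.541 ± 0.179 CPM). ITGB3, a subunit of the vitronectin receptor, had 979.5, 920.0 and 975.3 CPM in CC and 154, 176 and 198 CPM in TC, and ITGB5 1137, 1215 and 1041 CPM and 141, 154 and 174 CPM. Both fell without overlap, while their partner ITGAV rose (log2 1.01).

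**Figure D4:**
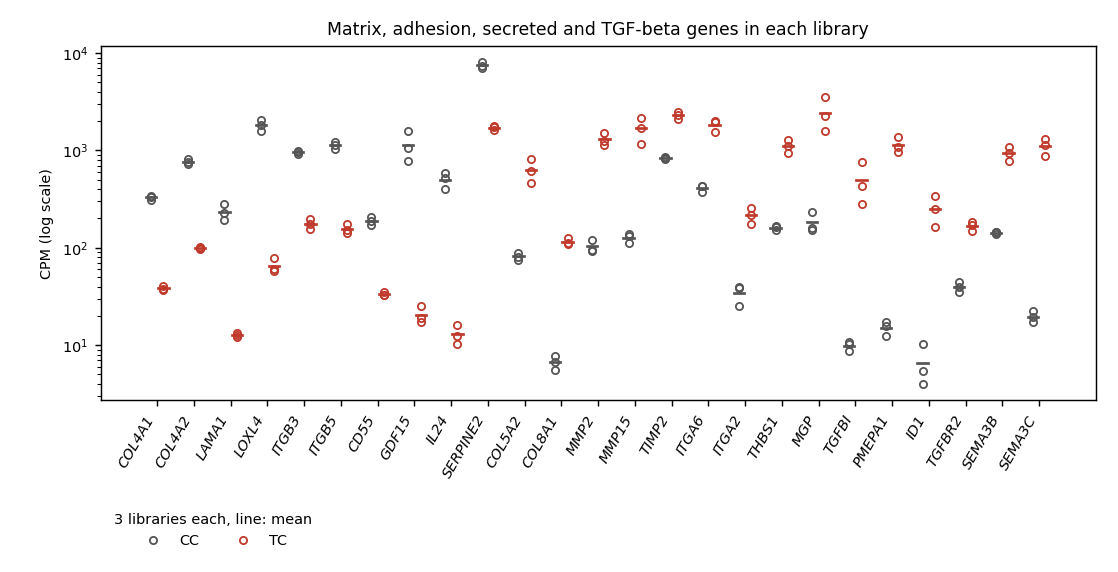
Level in CPM on a log scale of matrix, adhesion, secreted and TGF-beta genes in each of the 3 CC (grey) and 3 TC (red) libraries, with the mean as a line. From COL4A1 to SERPINE2 the TC points lie below the CC points, and from COL5A2 to SEMA3C they lie above, with TGFBI, MGP and ID1 the most spread among TC libraries.

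The TGF-beta and BMP pathway signals from secreted ligands through paired receptors to SMAD factors. Of 39 tested genes 23 rose and 9 fell (median 0.58). Of the ligands, TGFB1 (123, 128 and 121 CPM in CC, 431, 494 and 554 CPM in TC) and INHBA (5.54 ± 2.06 to 34.1 ± 0.394 CPM) rose. Receptor TGFBR2 rose (39.8 ± 4.58 to 168 ± 18.8 CPM) and SMAD3 fell (97.9 ± 11.5 to 50.5 ± 2.28 CPM). The inhibitors and targets had the highest median of the pathway, 2.45, with 9 of 13 higher and 3 lower. PMEPA1, a target that restrains SMAD signalling (chromosome 20, 57648392 to 57711536, minus strand, GRCh38), had 15.5, 12.3 and 17.2 CPM in CC and 970.1, 1089 and 1389 CPM in TC. The BMP target ID1 had 5.35, 10.3 and 3.96 CPM and 165, 250.3 and 337 CPM, and the matrix protein gene TGFBI 10.7, 10.1 and 8.72 CPM and 281, 432 and 765 CPM. All TC libraries were above all CC libraries in the 3 genes, by 76.6-fold, 38.4-fold and 50.1-fold, with the TC libraries of TGFBI spread widely. SMAD7, another inhibitor and target, fell (19.8, 18.1 and 39.5 CPM in CC, 12.4, 9.79 and 16.5 CPM in TC, adjusted p = 0.0045), as did BAMBI (log2 -0.94) and FST (-2.21).

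Actin and contractility genes rose in 12 and fell in 4 of 23 (median 0.42), with RHOB (28.1 ± 7.29 to 427 ± 125 CPM) and the myosin kinase MYLK (13.6 ± 1.88 to 209 ± 24.0 CPM) higher and ACTN1 lower (239 ± 27.96 to 89.9 ± 10.41 CPM). In the YAP and TEAD list 15 of 31 rose and 11 fell (median 0.24). Its targets moved both ways, 7 higher and 8 lower of 16: CCN1 (19.5 ± 5.71 to 61.4 ± 25.01 CPM) and CCN2 (51.3 ± 8.24 to 84.5 ± 26.03 CPM) rose and NT5E fell (63.3 ± 2.40 to 4.68 ± 0.429 CPM). WWTR1, which encodes the coactivator TAZ, fell from 1344 ± 145 to 479 ± 50.9 CPM, and the competitor VGLL4 rose (36.2 ± 15.8 to 175 ± 15.2 CPM). The TEAD site GGAATG was in the windows of 9 of 24 list members with a window and of 16.7% of all genes, and the forkhead site GTAAACA in those of 4 of 29 members of the PI3K and FOXO list and of 4.19% of all genes, both counted on both strands.

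WNT genes had 12 higher and 16 lower of 40 (median 0.03). The decoy SFRP1, which binds WNT ligands, fell from 282, 250.2 and 296 CPM to 11.3, 13.2 and 19.8 CPM, and the mediators LEF1 (58.6 ± 3.12 to 14.8 ± 0.839 CPM) and CTNNB1 (735 ± 30.7 to 351 ± 12.3 CPM) fell. WNT5A fell (3.15 ± 0.0381 to 1.25 ± 0.265 CPM) and WNT4 rose (0.132 ± 0.0931 to 5.66 ± 0.738 CPM). NOTCH genes were higher in 4 and lower in 8 of 19 (median -0.14), with the receptor NOTCH1 up (20.5 ± 5.93 to 47.6 ± 8.03 CPM) and the target HES1 down (30.5 ± 13.8 to 12.3 ± 1.19 CPM). Axon guidance genes were higher in 21 and lower in 8 of 39 (median 0.50), and among semaphorins, plexins and neuropilins 17 of 27 were higher (median 0.96). SEMA3C (chromosome 7, 80742538 to 80922359, minus strand, GRCh38), a secreted semaphorin, had 17.2, 19.3 and 22.3 CPM in CC and 877, 1150.1 and 1313 CPM in TC (log2 5.83 ± 0.16, adjusted p = 8.70e-11). SEMA3B (143 ± 4.08 to 939 ± 156 CPM), the receptor subunit NRP1 (6.50 ± 2.21 to 47.2 ± 11.4 CPM) and the plexin PLXNB3 (log2 2.18) rose too. Primary cilium genes were higher in 9 and lower in 18 of 40 (median -0.08), with the transport gene WDR35 down (61.2 ± 8.90 to 20.6 ± 0.834 CPM) and BBS1 up (18.5 ± 2.19 to 41.8 ± 4.75 CPM).

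ABC transporters divided evenly, 10 higher and 9 lower of 26 (median -0.02). ABCB5, a transporter of melanoma cells, had 0.716, 0.565 and 0.698 CPM in CC and 41.6, 32.2 and 13.5 CPM in TC (adjusted p = 1.21e-06). It was above CC in all 3 TC libraries, which varied widely. ABCA7 rose (5.96 ± 1.32 to 49.8 ± 3.23 CPM), while the drug exporters ABCB1 (65.8 ± 5.20 to 44.5 ± 1.53 CPM), ABCG2 (3.65 ± 0.119 to 1.96 ± 0.0955 CPM) and ABCC4 (59.4 ± 7.01 to 20.8 ± 1.78 CPM) fell.

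Chromatin modifiers were higher in 17 and lower in 18 of 50 (median 0.02). Methyltransferases, Polycomb and DNA methylation genes fell more often than they rose (11 and 4 of 20), among them EZH2, which methylates histone H3 in Polycomb complexes (41.8, 50.7 and 56.4 CPM in CC, 11.4, 11.4 and 11.6 CPM in TC), and the maintenance DNA methyltransferase DNMT1 (245 ± 24.5 to 117 ± 0.472 CPM). The deacetylase genes HDAC9 (10.9, 11.4 and 15.1 CPM in CC, 112, 120.1 and 108 CPM in TC) and HDAC1 (239 ± 2.85 to 597 ± 27.99 CPM) and the demethylating enzyme gene TET2 (18.5 ± 7.03 to 42.4 ± 4.41 CPM) rose. The histone demethylase KDM5B was slightly lower (139 ± 24.3 to 108 ± 9.94 CPM, adjusted p = 0.0085). In the list of histone variants 5 of 11 rose and 6 fell: H2AZ1 fell from 562 ± 97.2 to 132 ± 8.29 CPM, the replacement histone genes H3-3A and H3-3B rose (log2 0.58 and 0.61), and the genes of the large histone cluster H2BC12 (6.66 ± 0.164 to 149 ± 8.14 CPM), H2AC6 (1.99 ± 0.165 to 44.5 ± 5.29 CPM) and H1-2 (7.26 ± 2.14 to 122 ± 3.98 CPM) rose.

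Outside the lists, the largest changes among genes whose normalized counts averaged 100 or more included a rise of FLRT1, an adhesion protein of axons (0.592, 0.248 and 0.339 CPM in CC, 108, 134 and 167 CPM in TC). Falls of like size were found for SYTL5, a synaptotagmin-like protein of vesicle traffic (324, 245 and 269 CPM in CC, 0.648, 0.767 and 1.62 CPM in TC), for RLBP1, which binds retinal (38.8 ± 7.98 to 0.188 ± 0.128 CPM), and for CYB5R2, a cytochrome b5 reductase (37.6 ± 1.29 to 0.280 ± 0.129 CPM). None of these genes overlapped between groups.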

How the data were processed

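Gene counts of 12 libraries were used as deposited. According to the submitters' processing notes, the authors trimmed reads with fastp 0.20.1, aligned them to GRCh38.p13 with HISAT2 2.2.1 and counted reads per gene with HTSeq 0.13.5, and the deposited counts are whole numbers that were not normalized. The strand setting, and the treatment of reads that match several genes, are not given in the sources used here, so values of overlapping genes and close paralogs are uncertain. The table names 5088 numbered copies of gene symbols, of which 532 were tested. The 13 protein genes of mitochondrial DNA are not analysed here. Entries at very low levels for genes that every cell uses (LDHA, ALDOA, EIF5A) were not read as levels.

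Groups came from the sample titles. Genes with a mean scaled count of at least 10 over the 12 libraries were fitted with edgeR 4.0.16 in R 4.3.3 (TMM scaling, glmQLFit and glmQLFTest, glmTreat for 1.5-fold), with all 4 groups in the model, 8 residual degrees of freedom and a common biological coefficient of variation of 0.182. CPM values are scaled by TMM. A floor of 3 counts per library, 0.0540 to 0.0783 CPM in TC and CC, was set for groups without counts, and floors and counting intervals cover counting error only. On counts simulated from these libraries, 199 of 200 genes changed 4-fold were called, with 9 calls among 15058 unchanged genes. How the calls behave at smaller folds, or where as many genes differ as between TC and CC, was not tested. Totals of the TC and CC libraries were at least 38320786, and no 2 libraries within TC or within CC agreed within sampling noise. Other pairs of libraries were not compared.

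The genes named are key members set in the lists, the largest rise and the largest fall in each list beyond 1.5-fold, and the 10 largest rises and falls over all genes whose normalized counts averaged 100 or more and whose groups stood apart. Some of these genes are not reported here. Other list members were named after their values were seen. The lists, their members and the comparison were chosen with earlier results of these data known. Promoter windows came from RefSeq (GRCh38.p14) and gene positions from GENCODE on GRCh38. The alternatives were other scaling factors, a lower count filter, DESeq2 1.42.0, the 6 libraries alone, the replicate number as a block, removal of numbered copies or of mitochondrial genes, and leaving out each library in turn. A minimum of 1 CPM was added after seeing the data.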

Additional observations from a re-analysis of the deposited data

Results flagged for a closer look

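For the 232 named genes that were tested, the level 2 days after drug removal (PC) was set against the level at the end of treatment (TC) in the same fit, and 25 differed beyond 1.5-fold (edgeR glmTreat, Benjamini-Hochberg adjustment over all genes tested). These genes were chosen partly by the size of their change between CC and the same TC libraries. The share of all tested genes that differed between PC and TC is not given, so the count is not read as high or low. The values that follow are log2 fold changes of PC over TC, and each was tested as that difference. 15 genes were lower in PC.

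Of genes that were lower in TC than in CC, GDF15 (-2.20), PDK4 (-1.56), SLC38A1 (-1.46), LAMA1 (-1.18), SDHA (-1.16), A2M (-1.05), APOC1 (-0.99) and ITGB3 (-0.90) were lower again in PC. GDF15 went from 1140.0 ± 407 CPM in CC to 20.6 ± 4.37 in TC and 4.54 ± 2.08 in PC. Of genes that were higher in TC, HMOX1 (-1.54), DCT (-1.31), C1S (-1.27), COL8A1 (-1.24) and CPT1A (-0.93) had come down in PC. DCT stood at 407 ± 60.9 CPM in CC, 6452 ± 1317 in TC and 2601 ± 614 in PC. PPARGC1A (-1.49) and ME1 (-0.81), which were not called between TC and CC with all libraries and no block, were lower in PC than in TC.

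10 genes were higher in PC. The receptor gene AXL (1.56), the small heat shock gene CRYAB (1.44), CD36 (1.22), LRRC15 (2.25) and CRYGS (1.34) were higher in PC than in TC, and AXL went from 6.96 ± 0.590 CPM in CC to 37.9 ± 10.3 in TC and 112 ± 20.1 in PC. COL1A1 (1.98) and HEY1 (0.86), which were not called between TC and CC, were also higher in PC, as were CYB5R2 (1.498) and EZH2 (0.96), which were lower in TC than in CC. TAGLN (2.03) was higher in PC too. Between TC and CC it was not called with all libraries (log2 0.73), but it was called higher without CC replicate 3 (0.96) or TC replicate 1 (0.89). EZH2 stood at 49.6 ± 7.38 CPM in CC, 11.5 ± 0.0946 in TC and 22.3 ± 2.19 in PC.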

How the results depend on the processing

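The 4 counts of called genes stayed within 1.5 times their value under all 15 alternatives, at 4715 to 5529 higher and 4934 to 5799 lower, and beyond 1.5-fold at 2122 to 2712 higher and 2488 to 3232 lower. The share of higher genes among those called lay between 47.77% and 49.78%. This share is no independent check, since every alternative scaled to the library and had a median over all tested genes between -0.0384 and 0. Higher and lower are relative to the library, so a change in total RNA per cell could not be seen. Of 752 list medians under alternatives, 729 moved by less than the spread between replicates. The median of the collagens (0.18) was 0.46 with the 6 libraries of TC and CC alone. With only genes of at least 1 CPM, an alternative chosen after seeing the data, medians were 0.77 for neural crest, -0.94 for cytokines and chemokines, 0.39 for matrix remodelling and -0.17 for WNT.

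Leaving out 1 library at a time gave medians of 0.10 to 0.47 for collagens, -0.62 to -0.56 for translation factors, -1.18 to -1.09 for nucleotide synthesis, -0.16 to -0.040 for the primary cilium, -0.98 to -0.76 for cholesterol synthesis, 0.0097 to 0.22 for receptor tyrosine kinases, 0.16 to 0.29 for PI3K and FOXO, -0.86 to -0.59 for mitochondrial regulators, -1.35 to -1.10 for cytokines and chemokines, 0.38 to 0.56 for actin and contractility and 0.81 to 0.99 for neural crest. For fatty acid oxidation and uptake the range was -0.061 to 0.12, negative without CC replicate 3. The log2 fold change of SQSTM1 ranged from -2.54 to 0.12 and turned to 0.12 (adjusted p = 0.652, edgeR quasi-likelihood test) without CC replicate 2, which held most of its counts.

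With the replicate number as a block, 5347 genes were higher and 5511 lower. Among the named genes the block changed 4 calls: PPARGC1A (log2 -0.50, adjusted p = 0.0484), TAGLN (0.74, adjusted p = 0.0147) and NDUFS1 (1.90, adjusted p = 0.0301) were called with it (edgeR quasi-likelihood test), and SQSTM1 no longer was (adjusted p = 0.0987). The labels do not say what a number shares, and deviations of same-numbered CC and TC libraries correlated at 0.0393, 0.0519 and 0.0807, each below 0.1, although each library correlated best with its own number. For other results the cause of a change was not tested. Depth did not allow a fold for genes without counts in 1 group, which are given as bounds.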

Other observations

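The 3 TC libraries differed in some of the programmes that changed and lay close together in others. As the median over list members of the log2 difference from the CC mean, melanocyte genes stood at 1.32, 1.01 and 0.72 in TC replicates 1, 2 and 3, axon guidance genes at 0.40, 0.54 and 0.89, and the 3 CC libraries of both lists stayed between -0.05 and 0.08. By the same measure nucleotide synthesis genes stood at -1.138, -1.128 and -1.145 and spliceosome genes at -0.66, -0.66 and -0.67. DCT, at 7866, 6230.5 and 5261 CPM, and HMOX1, at 137, 103 and 64.9 CPM, were highest in TC replicate 1, while TGFBI, at 281, 432 and 765 CPM, MGP, at 1570.5, 2256 and 3521 CPM, and IL11, at 13.9, 25.2 and 43.0 CPM, were highest in TC replicate 3. TC replicate 3 was the most deeply sequenced of the 3, with 55567097 counts against 38320786 and 39517866, and the part of depth in these differences was not tested.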
